A study of Mus musculus with 6 samples.

Results

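Cells read interferons through receptors of paired chains, Janus kinases bound to those chains, and STAT and IRF transcription factors, and 9 genes of that relay are described here. They are Ifnar1, Ifnar2, Ifngr1, Ifngr2, Jak1, Tyk2, Stat2, Irf9 and Irf1, taken by symbol from a table of 41327 genes, and all 9 were among the 13651 genes tested. The RNA came from ID8, an immortalized epithelial line from the ovarian surface of C57BL/6 mice, left untreated and growing asynchronously. One group of 3 libraries, Trp53_KO, is Trp53-/-, and the other 3, Trp53_WT, are Trp53+/+, both in the ID8 line. The labels do not say how Trp53, the gene of the tumour suppressor p53, was disrupted, how many clones were used, or whether replicates were separate cultures. P-values therefore reflect library-to-library spread, possibly technical.

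Type I interferons bind a receptor made of IFNAR1 and IFNAR2, which carry the kinases TYK2 and JAK1. These kinases phosphorylate STAT proteins, STAT2 among them, which join IRF9 to form the complex ISGF3, and ISGF3 binds interferon-stimulated response elements (ISRE) in antiviral genes. Interferon gamma instead binds IFNGR1 and IFNGR2, which carry JAK1 and JAK2 and send STAT dimers to gamma-activated sites (GAS). One gene switched on there is Irf1, whose product is itself a transcription factor of antigen-processing genes.

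Trp53 itself was at 26.8 ± 2.4 CPM (counts scaled to library size, with TMM factors) in Trp53_KO and 104 ± 6.4 CPM in Trp53_WT (SD, n = 3 each), lower in every library of the first. Total counts per library lay between 15319956 and 19954170, and each of the 9 genes had between 275 and 3582 counts in a library. Trp53_WT replicate 1 stood apart. Its counts differed from those of replicates 2 and 3 with a chi-square per degree of freedom of 27.5 and 26.9, against 2.01 between the latter. Some values are therefore also given without it, though not all that moved.

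Among the 9 genes, 4 were modestly lower and 1 was modestly higher in Trp53_KO. Ifngr2, Tyk2, Irf9 and Irf1 fell, by 1.24-fold to 1.31-fold, and Jak1 rose 1.19-fold, while Ifnar1, Ifnar2, Ifngr1 and Stat2 did not pass the test (quasi-likelihood test in edgeR; calls at a Benjamini-Hochberg adjusted p under 0.05 over all tested genes). These 5 of 9 calls, or 55.6%, stand beside 30.3% of all tested genes called. The 4 lower calls stand beside 16.1% of genes called lower, and the 1 higher call beside 14.1% called higher. For 6 of the 9 genes no library of one group lay within the range of the other, against 46.0% of genes tested. The median log2 fold change of the 9 was -0.30, that of all tested genes -0.017, and the median size of change among all called genes 0.60, so the calls here were small ones. Without Trp53_WT replicate 3 the count of calls was 3, since Jak1 and Tyk2 lost theirs. In bulk RNA, fewer cells with a transcript and less transcript per cell cannot be told apart.

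**Figure D1:**
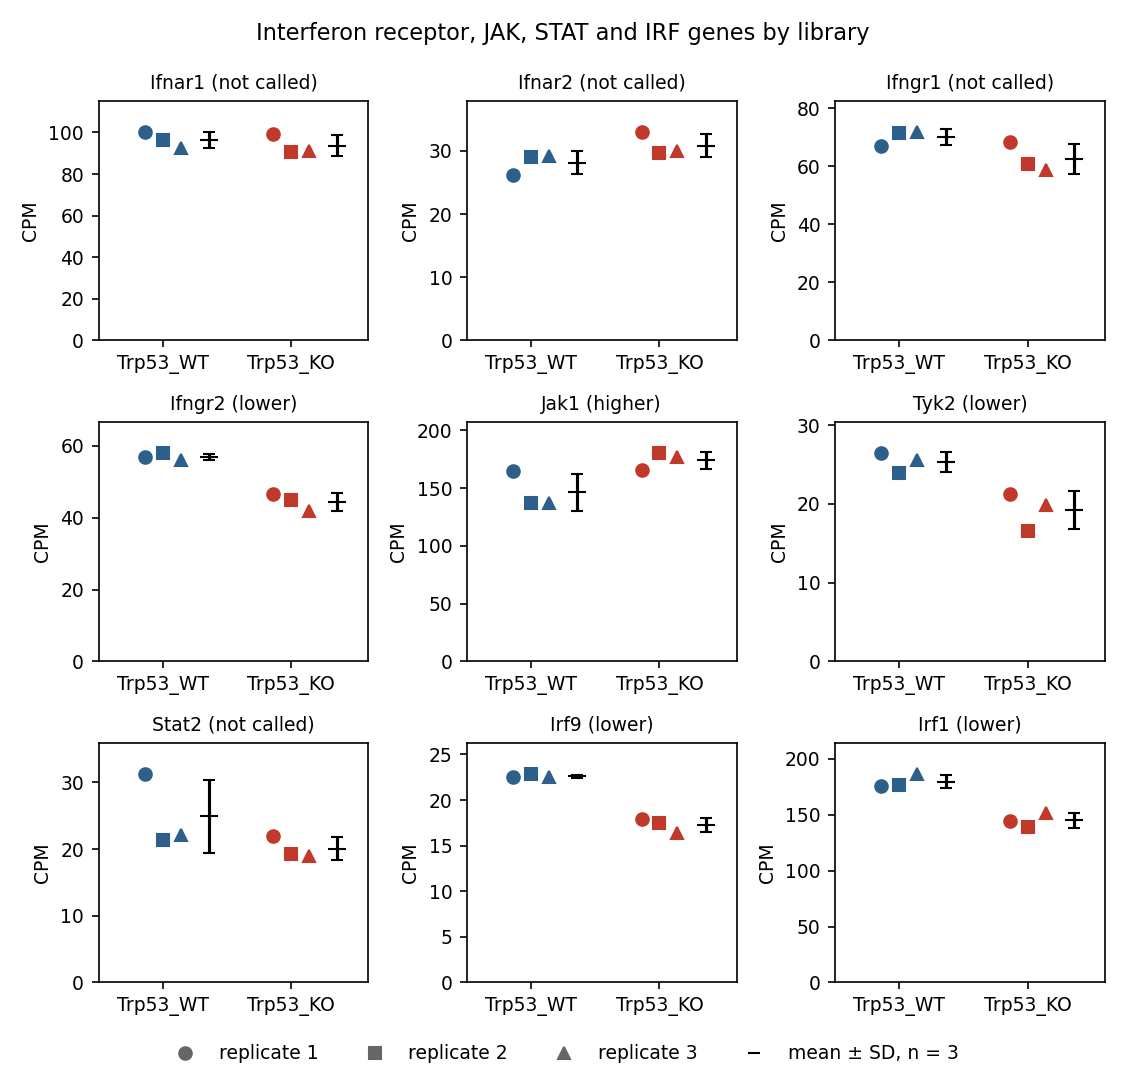
Each panel plots 1 gene's level in CPM (vertical axis from 0) for 3 Trp53_WT libraries in blue and 3 Trp53_KO libraries in red, with the marker shape giving the replicate and a black mark giving mean ± SD. Ifngr2, Tyk2, Irf9 and Irf1 lie lower in all 3 Trp53_KO libraries, and the Trp53_WT replicate 1 circle stands above the other blue points for Jak1 and Stat2.

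The chains of the type I receptor showed no call. Ifnar1 (chromosome 16, 91485238 to 91507441, GRCm38, forward strand), the low-affinity chain that carries TYK2, was at 99.3, 90.7 and 91.2 CPM across the Trp53_KO libraries, in replicate order here and later, and at 100, 96.6 and 92.4 CPM across Trp53_WT. The groups overlapped, and the log2 fold change was -0.041 with a 95% interval of -0.20 to 0.12 (edgeR, Benjamini-Hochberg adjusted p = 0.70). Ifnar2 (chromosome 16, 91372783 to 91405589, forward), the high-affinity chain, was at 32.9, 29.7 and 29.9 CPM in Trp53_KO and at 26.1, 29.1 and 29.2 CPM in Trp53_WT. Every Trp53_KO value of Ifnar2 was above every Trp53_WT value, some narrowly, and the interval of -0.058 to 0.32 spanned 0 (log2 fold change 0.13, edgeR, Benjamini-Hochberg adjusted p = 0.28). With Trp53_WT replicate 1 left out, the log2 fold change was -0.013 for Ifnar1 and 0.081 for Ifnar2.

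The chains of the interferon gamma receptor differed in their calls. Ifngr1 (chromosome 10, 19591949 to 19610229, forward), the ligand-binding chain, was at 68.4, 60.7 and 58.8 CPM in Trp53_KO and at 66.9, 71.6 and 71.7 CPM in Trp53_WT. Replicate 1 of Trp53_KO lay within the Trp53_WT range, and the log2 fold change of -0.16 (interval -0.34 to 0.019) did not pass (edgeR, Benjamini-Hochberg adjusted p = 0.16). Ifngr2 (chromosome 16, 91547072 to 91565623, forward), the signalling chain that recruits JAK2, was at 46.6, 45.0 and 41.8 CPM in Trp53_KO against 56.8, 57.9 and 56.2 CPM in Trp53_WT. All 3 Trp53_KO libraries were lower, by a log2 fold change of -0.36 ± 0.07 (SE; edgeR, Benjamini-Hochberg adjusted p = 0.0049).

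Of the kinases, Jak1 and Tyk2 moved in opposite directions. Jak1 (chromosome 4, 101152367 to 101265282, reverse), which serves both interferon receptors and many other cytokine receptors, was at 166, 180 and 177 CPM in Trp53_KO and at 165, 137 and 137 CPM in Trp53_WT. Replicate 1 of both genotypes nearly met, and the other libraries were well apart. The log2 fold change was 0.26 ± 0.08 (SE) and only just passed (edgeR, Benjamini-Hochberg adjusted p = 0.047). It was 0.35 once Trp53_WT replicate 1 was left out, with an adjusted p of 3.1e-04 (edgeR). Leaving out any other library ended the call: the adjusted p was 0.059, 0.11 and 0.12 without Trp53_KO replicates 1, 2 and 3, and 0.13 without Trp53_WT replicate 2 or replicate 3 (edgeR; range over the alternatives 3.1e-04 to 0.13).

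Tyk2 (chromosome 9, 21104068 to 21131243, reverse), the partner kinase at IFNAR1, was at 21.3, 16.6 and 19.8 CPM in Trp53_KO against 26.4, 23.9 and 25.6 CPM in Trp53_WT. The groups did not overlap, with a log2 fold change of -0.39 ± 0.10 (SE; edgeR, Benjamini-Hochberg adjusted p = 0.019). That call was lost without Trp53_WT replicate 3 (edgeR, adjusted p = 0.054; alternatives from 0.0081 to 0.054). An antisense gene, 1700084C06Rik, shares 8.07% of the annotated exon bases of Tyk2, and whether the counting used strand is not stated in the sources. That gene is not listed under this symbol among the counted genes.

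The factors below the receptors were lower in part. Irf1 and Stat2 are shown with the 250 bases before their RefSeq start sites (GRCm38.p6), because their promoters hold the element through which the relay is known to act on its own components. Capitals mark matches to GAS (TTCNNNGAA, either strand) in Irf1, at chr11:53769764-53770013 on the forward strand, and to the core of an ISRE (GAAA, any 2 bases, GAAA, either strand) in Stat2, at chr10:128270248-128270497 on the forward strand.
Irf1: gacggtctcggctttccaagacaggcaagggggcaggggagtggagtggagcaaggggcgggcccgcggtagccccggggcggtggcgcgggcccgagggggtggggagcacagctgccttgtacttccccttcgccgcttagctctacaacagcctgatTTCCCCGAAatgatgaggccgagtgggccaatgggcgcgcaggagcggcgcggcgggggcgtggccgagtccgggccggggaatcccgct
Stat2: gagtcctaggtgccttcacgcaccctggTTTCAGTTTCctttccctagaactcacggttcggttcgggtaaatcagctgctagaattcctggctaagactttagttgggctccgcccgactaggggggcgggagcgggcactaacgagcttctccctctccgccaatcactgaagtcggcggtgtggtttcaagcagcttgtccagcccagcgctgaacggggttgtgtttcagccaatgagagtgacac

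The match in Irf1, TTCCCCGAA, lies 90 to 82 bases before the start site, and the one in Stat2, which is on the reverse strand, lies 222 to 213 bases before it. Of 32851 promoter windows of 300 bases in the same RefSeq table, 8.30% hold the GAS pattern and 3.44% the ISRE core, so both are common patterns, and a match is not a bound site. Ifnar2 and Ifnar1 also held the GAS pattern, as TTCCTGGAA and TTCACGGAA. Neither pattern was found in the windows of Ifngr1, Ifngr2, Jak1, Tyk2 or Irf9, nor at the second start site of Irf1, and none of the 11 windows held a p53 half-site, which 8.36% of all windows hold.

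Irf1 (chromosome 11, 53770014 to 53778374, forward), a gene induced by interferon gamma, was at 144, 139 and 152 CPM in Trp53_KO against 176, 177 and 186 CPM in Trp53_WT. Each Trp53_KO library was below each Trp53_WT library. The log2 fold change was -0.31 ± 0.06 (SE; edgeR, Benjamini-Hochberg adjusted p = 0.0046), and the call held in all 13 alternatives computed.

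Irf9 (chromosome 14, 55603571 to 55610030, forward), the DNA-binding subunit of ISGF3, was at 17.9, 17.5 and 16.4 CPM in Trp53_KO against 22.5, 22.8 and 22.5 CPM in Trp53_WT. The coefficient of variation (SD over mean) of the Trp53_WT libraries was 0.901%, the lowest of the 9 genes, and all Trp53_KO libraries were lower. The log2 fold change was -0.39 ± 0.08 (SE; edgeR, Benjamini-Hochberg adjusted p = 0.0050) and was called in all 13 alternatives, as was that of Ifngr2. Exon bases shared with Rnf31 are 2.28% of Irf9, and those shared with the antisense gene Gm17334 are 3.40% of Irf1.

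Stat2 (chromosome 10, 128270559 to 128292849, forward), the other dedicated subunit of ISGF3, was at 22.0, 19.3 and 18.9 CPM in Trp53_KO and at 31.2, 21.4 and 22.1 CPM in Trp53_WT. Trp53_WT replicate 1 was far above the other libraries, and Trp53_KO replicate 1 lay within the Trp53_WT range. The log2 fold change was -0.30 (interval -0.63 to 0.020; edgeR, Benjamini-Hochberg adjusted p = 0.15), and -0.12 when Trp53_WT replicate 1 was left out (edgeR, adjusted p = 0.37; alternatives from 0.062 to 0.37).

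**Figure D2:**
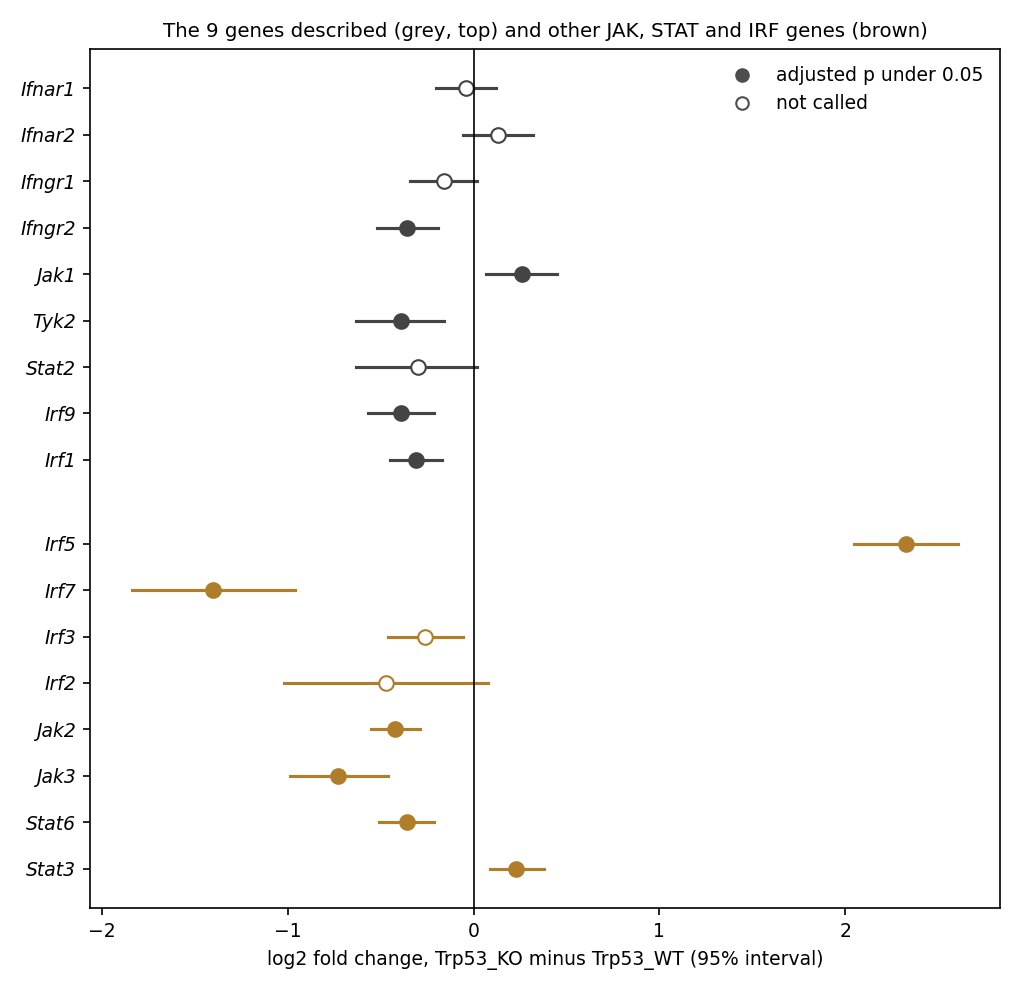
Log2 fold changes (horizontal axis, Trp53_KO minus Trp53_WT) with 95% intervals for the 9 genes in grey and, in brown, the 4 other JAK or STAT genes and 4 other IRF genes with the lowest adjusted p, where a filled point is an adjusted p under 0.05. The 9 genes lie between -0.39 and 0.26, whereas Irf5 lies at 2.33 and Irf7 at -1.40.

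The levels of the 9 genes were compared per kb of exon, with lengths from GENCODE M21, which may differ from those the authors counted over. In Trp53_WT, Irf1 was highest at 45.2 ± 1.5 CPM per kb, followed by Ifngr1 at 24.6 ± 0.97, Jak1 at 20.2 ± 2.3, Ifnar1 at 16.2 ± 0.67 and Ifngr2 at 15.1 ± 0.23 CPM per kb (SD, n = 3). Ifnar2 was at 8.46 ± 0.53 CPM per kb. Stat2 and Irf9, both at 4.20 CPM per kb, and Tyk2 at 3.69 ± 0.19 CPM per kb were lowest. The ranges of Stat2 and Irf9 overlapped, and those of the other neighbours in this order did not. Among 11485 tested genes with a length, the 9 genes lay between the 25.5th percentile (Tyk2) and the 88.4th percentile (Irf1) of the mean level per kb.

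In Trp53_KO the order was the same except that Jak1, at 24.1 ± 1.0 CPM per kb, stood before Ifngr1, at 22.0 ± 1.8. The library ranges of those genes overlapped there, as did those of Stat2 with Irf9 and of Irf9 with Tyk2. The receptor and kinase transcripts of both interferon types were thus present in both genotypes, with Tyk2 at 2.80 ± 0.35 CPM per kb the lowest of them.

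**Figure D3:**
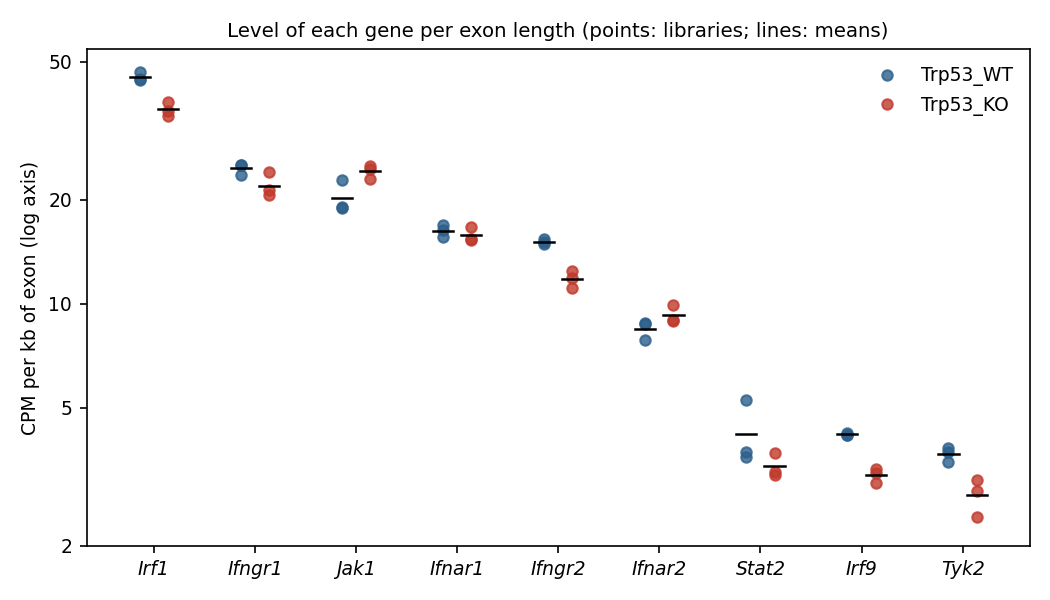
Level of each gene in CPM per kb of exon on a log axis, in the order of Trp53_WT, with 1 point per library (blue Trp53_WT, red Trp53_KO) and a line at each mean. Irf1 stands highest at 45.2 in Trp53_WT and 36.5 in Trp53_KO, and Stat2, Irf9 and Tyk2 form the low end.

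Ratios between partners within a library do not depend on how libraries are scaled, and 6 were computed per kb of exon. The ratio of Jak1 to Tyk2 RNA was 7.39, 10.3 and 8.49 in Trp53_KO against 5.94, 5.43 and 5.08 in Trp53_WT, higher in every Trp53_KO library. The ratio of Ifngr1 to Ifngr2 was 1.94, 1.79 and 1.86 against 1.56, 1.64 and 1.69, also without overlap. The ratio of Ifnar1 to Ifnar2 was lower in Trp53_KO, at 1.69, 1.71 and 1.71 against 2.15, 1.86 and 1.77, a log2 difference of -0.17 that was -0.092 without Trp53_WT replicate 1. For each of these the two-sided exact permutation p was 0.10, the smallest that 3 against 3 allows, and 0.20 after Benjamini-Hochberg adjustment over the 6 ratios, so none could pass. The ratios of Ifnar1 to Ifngr1, Stat2 to Irf9 and Irf1 to Irf9 overlapped between genotypes. Their means were 0.719 against 0.661, 1.06 against 1.0 and 11.4 against 10.8 (exact permutation p = 0.30, 0.70 and 0.50).

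Ifnar2, Ifnar1 and Ifngr2 are neighbours on chromosome 16, in a cluster of class II cytokine receptors that also holds Il10rb, the shared chain of the IL-10 and type III interferon receptors. The 4 genes did not change as a block. Il10rb, between Ifnar2 and Ifnar1, was at 28.3, 27.3 and 28.0 CPM in Trp53_KO against 18.8, 21.3 and 19.6 CPM in Trp53_WT. All its Trp53_KO libraries were higher, with a log2 fold change of 0.49 ± 0.08 (SE; edgeR, Benjamini-Hochberg adjusted p = 0.0015), next to -0.36 for Ifngr2 and no call for the other 2. The annotated gene Gm21970 shares 9.46% of the exon bases of Ifnar2. It is not listed under that symbol among the counted genes, so whether reads there were affected is not known.

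Of the 5 nearest tested genes on each side, Eva1c was lower (log2 fold change -0.96), Tmem50b higher (0.28) and Donson lower (-0.22), and Gm17518, Urb1, Synj1, Paxbp1, Dnajc28, Gart and Son were not called. In all, 5 of these 14 genes were called, near the share of 30.3% called among all tested genes. The count was 3 without any 1 of the Trp53_KO replicates 1, 2 or 3. Tmem50b lost its call in 8 and Donson in 10 of 13 alternatives, with an adjusted p of up to 0.13 and 0.17 (edgeR or DESeq2, Benjamini-Hochberg; lowest 0.029 and 0.034). Synj1 was called with no filter on low counts (adjusted p = 4.8e-04), and without Trp53_WT replicate 2 (0.033) or 3 (0.047), and its log2 fold change without Trp53_WT replicate 1 was -0.14 (edgeR, adjusted p = 0.21; highest over the alternatives 0.29).

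**Figure D4:**
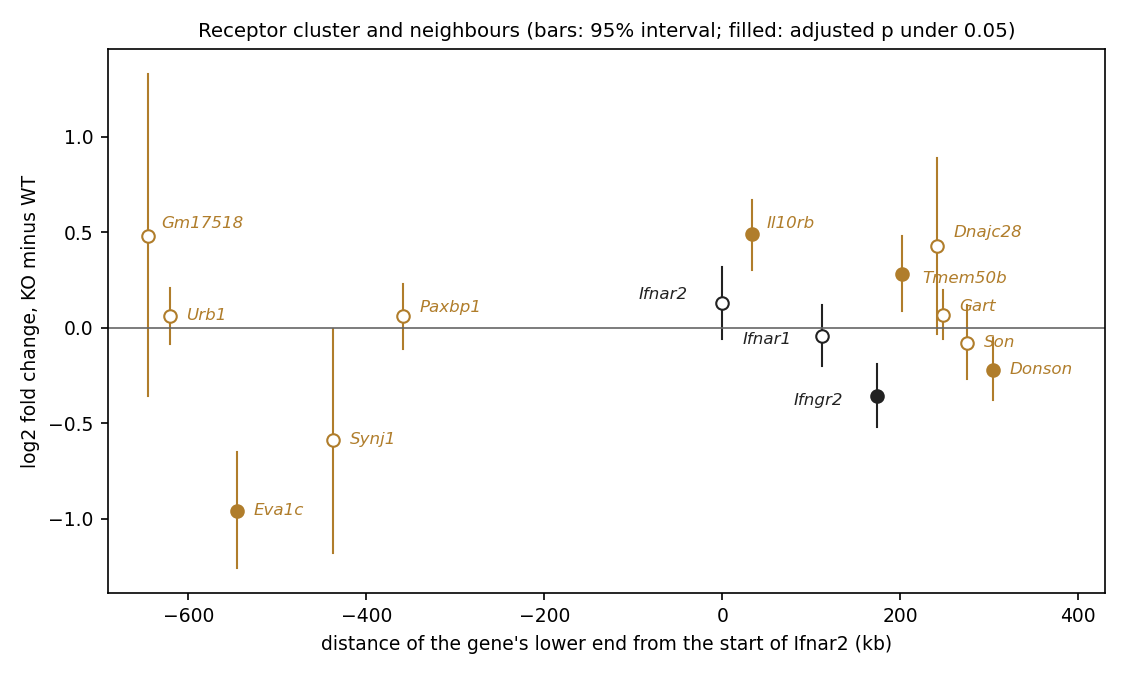
Log2 fold change (vertical axis, Trp53_KO minus Trp53_WT) with 95% intervals against distance in kb from the start of Ifnar2, with the described genes in black, neighbours in brown, and filled points for an adjusted p under 0.05. Il10rb at 0.49 and Ifngr2 at -0.36 lie within 174 kb of the start of Ifnar2.

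Some genes in the rest of the relay changed more than any of the 9 genes. Of 7 tested JAK and STAT genes outside the 9, 3 were lower, 1 was higher and 3 were not called. Their median log2 fold change was -0.069, and over all tested genes 16.1% were called lower and 14.1% higher. Jak2, the second kinase of the interferon gamma receptor, was at 128, 131 and 127 CPM against 169, 176 and 171 CPM, lower in all Trp53_KO libraries (log2 fold change -0.42 with SE 0.06, edgeR, Benjamini-Hochberg adjusted p = 4.5e-04). Jak3, the kinase of the common gamma chain, and Stat6, the factor of IL-4 signalling, were lower with log2 fold changes of -0.73 and -0.36. Stat3, the factor of IL-6 family cytokines, was higher by 0.23, a call that ended when Trp53_KO replicate 1 or 3, or Trp53_WT replicate 2 or 3, was left out (edgeR, adjusted p 0.062, 0.081, 0.091 and 0.051; alternatives down to 0.0055).

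Among IRF genes, Irf5 and Irf7 went opposite ways. Irf5, a factor of inflammatory cytokine genes, was at 39.1, 36.5 and 39.8 CPM in Trp53_KO against 6.01, 8.01 and 8.74 CPM in Trp53_WT, a 5.03-fold rise (log2 fold change 2.33 with SE 0.12, edgeR, Benjamini-Hochberg adjusted p = 7.6e-07). Irf7, the interferon-inducible factor that amplifies type I interferon production, was at 1.73, 1.45 and 1.91 CPM against 5.27, 3.66 and 4.72 CPM (log2 fold change -1.40; edgeR, Benjamini-Hochberg adjusted p = 4.7e-04). The groups were far apart for both genes. Irf3 and Irf2, at -0.26 and -0.47, were not called. Irf2 was at 9.59 ± 0.42 CPM in Trp53_KO and 13.4 ± 5.7 CPM in Trp53_WT (SD, n = 3), where replicate 1 was far above the others, and its log2 fold change without that library was -0.083. Irf2 passed with no filter on low counts (edgeR, adjusted p = 0.018; highest over the alternatives 0.62). Irf3 passed in limma-voom (adjusted p = 0.048) and without Trp53_WT replicate 1 (edgeR, adjusted p = 0.031, the lowest of a range up to 0.15). Irf4 and Irf8 had 0 counts.

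Negative regulators of the pathway were called in both directions, with 3 of 20 higher and 6 lower, beside 14.1% and 16.1% of all tested genes. Their median log2 fold change was -0.11. Ptpn6, the phosphatase SHP-1, rose from 3.97 ± 0.56 to 9.70 ± 0.81 CPM, and Ptpn2, a phosphatase that acts on JAK1, from 39.1 ± 2.3 to 50.3 ± 2.4 CPM (SD, n = 3). Socs2 was higher by 0.63 and Socs5 was lower with a log2 fold change of -0.73, both in the family of cytokine signalling suppressors. These 4 calls, the ones with the lowest adjusted p, include all 3 higher calls but only 1 of the 6 lower ones. They held in all 13 alternatives, while the count of 9 fell to 4, 5 and 5 without Trp53_KO replicate 1, Trp53_KO replicate 3 and Trp53_WT replicate 3.

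Calls among other receptors went both ways, 2 of 4 and 5 of 10 in 2 lists, against 30.3% of all tested genes. Of 4 tested class II cytokine receptors besides the 9 genes, Il10rb was higher and Ifnlr1, the specific chain of the type III interferon receptor, was lower (11.2 ± 0.96 CPM against 15.9 ± 0.21 CPM, log2 fold change -0.50). Il22ra1 and Il20rb were not called, although Il20rb passed without Trp53_WT replicate 1 (edgeR, adjusted p = 0.029, the lowest of a range up to 0.48). Of 10 tested receptors that signal through JAK1, 1 was higher and 4 lower, or 3 in all without Trp53_KO replicate 2. Il2rg, the common gamma chain, was higher by 2.50 on the log2 scale at 2.34 CPM against 0.404 CPM, and Il6ra, Il13ra1 and Il15ra were lower with log2 fold changes of -1.12, -0.33 and -1.08. Il15ra lost its call without Trp53_KO replicate 2 or 3 (edgeR, adjusted p = 0.075 and 0.088; lowest over the alternatives 5.4e-04).

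Most tested genes of both lists of interferon targets were lower in Trp53_KO. Over all tested genes, 14.1% were called higher and 16.1% lower. The lists share some genes, Irf7 for example among both the IRF genes and the type I interferon targets, so their counts overlap. Of 31 tested targets of type I interferon, 0 were higher and 20 lower in edgeR, with a median log2 fold change of -0.89. DESeq2 and limma-voom also called 0 higher, and 0 were higher at an unadjusted p under 0.05 in edgeR. Oas3, an RNA-activated synthetase, was at 0.612, 0.121 and 0.160 CPM in Trp53_KO against 5.33, 4.01 and 4.45 CPM in Trp53_WT. It rested on 12, 2 and 3 counts against 79, 81 and 83, and Bst2, Parp14 and Ifi27 were also lower, with log2 fold changes of -1.82, -1.06 and -0.91. Of 21 tested targets of interferon gamma, 2 were higher and 16 lower, with a median of -0.64. Those higher were Nlrc5 and Psmb8, each under 2 CPM and chosen after their values were seen. Some lower calls rested on levels as low. Examples, also chosen after their values were seen, are Psmb9 (0.700 CPM in Trp53_KO against 1.51 in Trp53_WT) and the type I target Isg15 (0.821 against 1.91 CPM). Gbp2, a guanylate-binding GTPase, fell from 16.3 ± 0.96 to 7.84 ± 0.28 CPM and Gbp3 from 4.90 ± 0.16 to 2.01 ± 0.23 CPM (SD, n = 3), and the peptide transporter genes Tap1 and Tap2 were lower with log2 fold changes of -0.80 and -0.59. Gbp and Oas genes have close copies between which the counting could split reads. The median of the 9 genes was -0.30, and the difference between lists was not tested. Earlier results of these data had already shown interferon-stimulated genes to be lower, so the lists are no independent evidence of the direction.

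**Figure D5:**
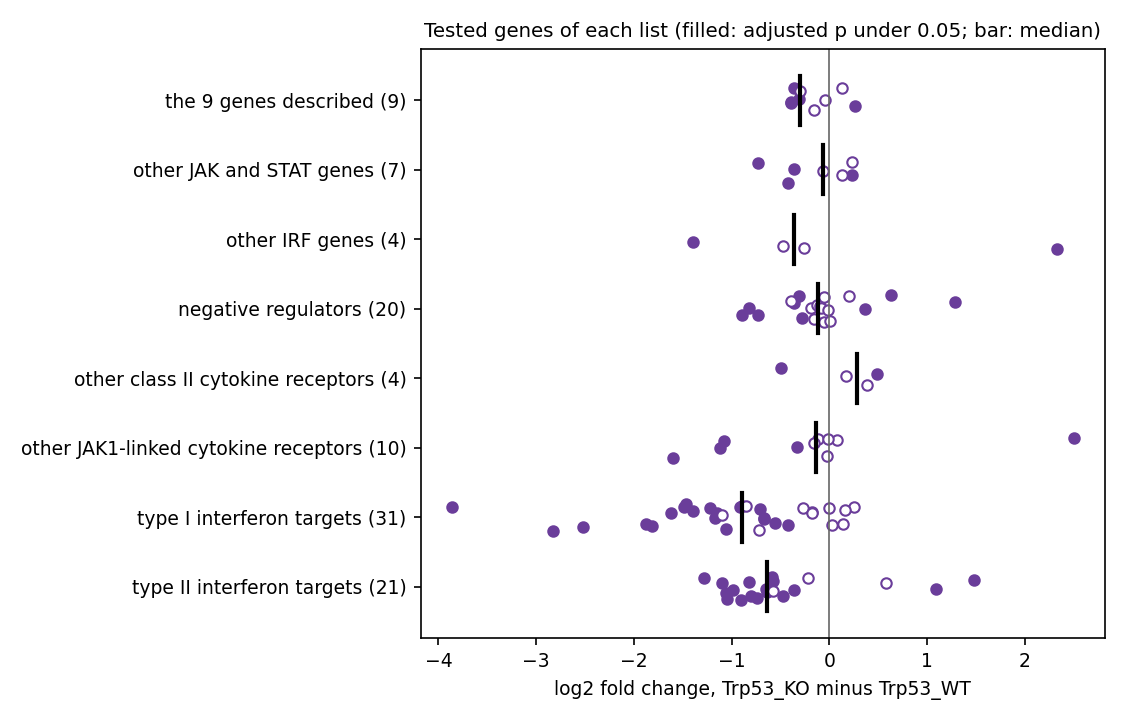
Each point is a tested gene at its log2 fold change (horizontal axis, Trp53_KO minus Trp53_WT) in 8 groups of the pathway, filled for an adjusted p under 0.05, with a bar at the median and vertical scatter for legibility only. The 9 genes have a median of -0.30, and the targets of type I and type II interferon have medians of -0.89 and -0.64. Genes that lists share, such as Irf7, are plotted in each.

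Ligand RNA was at the limit of detection. Of 21 interferon genes, 18 had 0 counts in all 6 libraries, Ifnb1 and Ifng among them, and Ifnz, Ifne and Ifnab had 12, 3 and 1 counts in total. Immune cells, another possible source of interferon pathway RNA, were checked by 11 markers. Of these, 6 had 0 counts, Adgre1, Itgam, Tyrobp, Cd3e and Nkg7 among them, and Ptprc, Csf1r and Lyz2 had 10, 5 and 2 counts in total. The summed level of those 11 was 8.03 to 10.1 CPM in Trp53_KO and 32.0 to 35.1 CPM in Trp53_WT, mostly Cd14, which went from 28.3 ± 1.5 to 5.09 ± 1.0 CPM (SD, n = 3), and Cd68 was not called (log2 fold change -0.29). Endothelial markers, of which 4 of 8 had 0 counts, summed to 17.3 to 18.7 CPM against 29.5 to 30.9 CPM, but the tested ones went opposite ways. Flt1 was lower (16.2 ± 0.44 against 29.6 ± 0.73 CPM) and Pecam1 higher (1.95 ± 0.37 against 0.153 ± 0.048 CPM). Fibroblast markers, of which Lum alone of 5 had 0 counts, summed to 229 to 251 CPM against 101 to 108 CPM. The tested ones were all higher: Dcn at 235 ± 11 against 102 ± 4.2 CPM, and Pdgfra and Col15a1 with log2 fold changes of 1.44 and 1.18, and Col15a1 lost its call in 5 of 13 alternatives. All 12 ovarian surface markers passed the filter, with 5 higher and 4 lower, beside 14.1% and 16.1% of all tested genes. They summed to 4271 to 4544 CPM in Trp53_KO and 4014 to 4098 CPM in Trp53_WT. Those sums hide large changes in single markers. Bnc1 had 1, 1 and 2 counts in Trp53_KO against 570, 755 and 764 in Trp53_WT, and Lrrn4 had 1282, 1074 and 1249 against 2, 5 and 6. Upk3b and Gpm6a were higher, with log2 fold changes of 2.85 and 0.90. The part of all these markers in the changes above was not tested.

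For Irf1, the called gene of the 9 with the lowest adjusted p, the most similar profiles over the 6 libraries were those of Recql, Fam129b, RP23-180L12.1, Wdr6 and Trp53i11. Their Pearson correlations of log2 CPM lay between 0.9971 and 0.9995 among 10336 genes compared. The points share libraries and genotypes, so the correlation is a description. Of these, Recql was not called (log2 fold change -0.14), and Fam129b, RP23-180L12.1, Wdr6 and Trp53i11 were lower with -0.65, -0.32, -0.43 and -0.70.

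The authors' deposited table of repeat elements gave a second view of the same loci. Of 408 rows within the spans of the 9 genes, 0 had an FDR under 0.05, against 0.672% of that whole table, which has 773731. The lowest FDR was 0.076, for a B2_Mm1a row within the span of Tyk2 that the authors' deposited table annotates to RP23-186O3.2. The table gives no unadjusted p and no values per library, so the depth behind a row is unknown. When the spans were widened by 10 kb on each side, 2 rows of the authors' deposited table passed. These were an intergenic B2_Mm1a row near Ifnar2 at 1.51 (FDR 2.3e-05) and an ORR1D1 row annotated to Cdc37 near Tyk2 at -1.22 (FDR 0.030). Both fold changes from the authors' deposited table are read here as log2.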

How the data were processed

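Total RNA was made into stranded libraries after DNase treatment, per the labels' protocols. The tools named are STAR, featureCounts and edgeR, on mm10, per the submitters' processing notes. Their versions, strand option and annotation are not stated in those sources. The deposited gene table holds raw counts. The authors also deposited a table of repeats with a fold change, read here as log2, and an FDR, an adjusted p-value, per row. The base is not stated in that deposited table. It was checked on 824 rows past the threshold in exons or 3' UTRs of called genes. Row values over the log2 fold changes of those genes had a median of 1.07. Natural logs would give 0.693 without selection. Rows and genes were selected by significance, so this ratio does not settle the base.

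Counts were fitted with edgeR 4.0.16 in R 4.3.3 (filterByExpr, TMM, quasi-likelihood, genotype only, all 6 libraries) and adjusted by Benjamini-Hochberg over 13651 genes. Standard errors are approximate, from the F statistic. The script was tested on simulated data. Partner ratios were compared by exact permutation (scipy 1.17.1). Exon lengths and coordinates came from GENCODE M21 (GRCm38), and promoter windows, found for all 9 genes, from RefSeq on GRCm38.p6. Every replicate pair differed by more than sampling noise, and none was merged. Named were the 9 genes, from every list up to 4 genes by adjusted p, all neighbours in the cluster, and the 5 genes most like the called gene with the lowest adjusted p (mean of at least 5 CPM; 0.01 CPM added before the log). Nlrc5, Psmb8, Psmb9, Isg15 and the interferon and marker genes listed by count are named outside the rule, and Trp53 checks the labels. Some tested genes of the lists are counted but not reported by name here. The members, lists and tests were chosen with earlier results of these data known. Alternatives were RLE and upper-quartile factors, other count filters, a replicate block, each library left out, DESeq2 1.42.0 and limma-voom (limma 3.58.1).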

Additional observations from a re-analysis of the deposited data

How the results depend on the processing

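Over 13 alternatives per gene, Ifngr2, Irf9 and Irf1 kept their calls, and Ifnar1, Ifnar2, Ifngr1 and Stat2 were never called. Jak1 lost its call in 6 and Tyk2 in 1. When 1 library was left out, the number of genes called over the table ranged from 2977 to 4984, against 4130, and that of the 9 genes from 3 to 5, against 5. Under the same omissions the negative regulators called ranged from 4 to 10 (9 with all libraries), the JAK1-linked receptors from 3 to 6 (5) and the genes of the chromosome 16 cluster from 3 to 4 (5). That cluster also gave 3 calls in DESeq2 and 3 with the replicate block. The log2 difference in the ratio of Stat2 to Irf9 ranged from -0.008 to 0.27, and -0.008, without Trp53_WT replicate 2, was a reversal of 0.098 in a ratio with no call. Repeat rows past the threshold numbered 2 when spans were widened by 10 kb, 1 of them at an FDR under 0.01, and 0 at either threshold within the gene spans. The cause of these changes was not tested.

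Replicate numbers did not pair the libraries: deviations of same-numbered libraries from their group means correlated at -0.053, 0.077 and -0.12 over tested genes. With the replicate number as a block, 3806 genes and 4 of the 9 were called, and Jak1 had an adjusted p of 0.064 (edgeR). The called genes among the 9 kept their direction under TMM, RLE and upper-quartile factors. The median log2 fold change of all genes stayed between -0.022 and -0.002. All these factors take most genes as unchanged, so that median could not show a change in total RNA per cell. What could be resolved differed between genes, and for Stat2 an estimate of -0.30 was not called.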
